A study of Carassius auratus with 9 samples.

Results

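Coagulation factor XIII A chain and an epidermal-type transglutaminase were followed copy by copy in goldfish skin. The set was every gene whose product name, without a transcript variant suffix or the ending "-like", reads coagulation factor XIII A chain, which gave 8 genes, together with LOC113040942, a protein-glutamine gamma-glutamyltransferase K-like gene. These were 9 of the 74297 genes measured. The choice of this family was made on its FPKM values: it was selected on the difference of several copies and of LOC113040942 between white skin and the other colors in these same libraries, so their levels in white against brown and yellow are a description and carry no test.

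The libraries were made from back skin of celestial goldfish, an ornamental breed of Carassius auratus with upturned eyes, aged 4 months. Fish with brown, white or yellow skin were compared to look for genes related to pigment, and each color had 3 biological replicates. No genotype, treatment or sex is given for any color in the labels. Whether the 3 replicates of a color were siblings or pools is also not stated, so the spread and the p-values cover only the variation between these 9 libraries.

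Factor XIII A is the enzyme that finishes a blood clot: thrombin activates it, and it then joins glutamine and lysine side chains of neighbouring fibrin strands. In mammals it is carried in plasma and platelets and is also made by macrophages and by dendritic cells of the dermis, where it can cross-link matrix proteins. Transglutaminase K uses the same chemistry in keratinocytes, where in mammals it builds the cornified envelope of the outer epidermis. Fish epidermis stays alive at its surface and does not form that envelope as mammalian skin does.

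Levels are the authors' FPKM, in which counts are divided by gene length and by a library denominator, so copies of different length can be compared. How that denominator was defined is not known. It was 0.675 to 1.39 times the reads counted on genes. Between 13772601 and 17359648 reads per library fell on genes. How reads matching more than 1 copy were counted is not stated, so the division of reads among near-identical copies is uncertain.

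The 8 factor XIII A copies fell into 3 kinds by their level in skin. The copies on chromosomes 24 and 49, 5 in all, were read mainly in white skin. LOC113105860 on chromosome 7 and LOC113079139 on an unplaced sequence were read in every library of every color. LOC113040869 on chromosome 23, annotated at 9837981 to 9840079 on the minus strand, had no read in any library. Its gene model is only 392 bases long, and it is the only factor XIII A copy without the transglutaminase core domain in the files' annotation. A floor of 3 reads on so short a model corresponds to 0.343 to 0.682 FPKM, so a low level would not have been detectable.

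LOC113042740, at 7353191 to 7366546 on the plus strand of chromosome 24, had the highest mean level of the copies in white skin after the copy on chromosome 7. It measured 13.4, 24.5 and 34.1 FPKM in white 1, 2 and 3, or 24.01 ± 10.3 (SD, n = 3). The brown libraries had 0.0941, 0.179 and 0.274 FPKM. Yellow 1 had 2.43 FPKM, yellow 2 had none and yellow 3 had 0.0603. All 3 white libraries lay above all 6 others, and yellow 1 was the only library outside white with an appreciable level. In reads, white held 3235 against 23 in brown. Scaled by the library denominators that the authors' FPKM imply, the ratio was 134, with a 95% counting interval of 89.1 to 212. All ratios between colors below are scaled in this way. In bulk tissue, more cells that make a transcript and more transcript per cell cannot be told apart, which holds for every level given here.

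LOC113042211 lies downstream on the same strand of chromosome 24, at 7398476 to 7414168. It had 4.60, 5.21 and 9.91 FPKM in white 1, 2 and 3. No brown library had a read of it, and neither had yellow 2 or yellow 3, while yellow 1 had 0.667 FPKM from 38 reads. White was therefore at least 276-fold higher than brown, against a floor of 3 reads over the brown group. Without brown 1, the deepest brown library, the bound was 152.

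LOC113042741, at 7712413 to 7730841 on the minus strand of chromosome 24, was the least abundant of the copies with reads. White 1, 2 and 3 had 1.65, 1.40 and 2.07 FPKM. Brown 1, 2 and 3 had 0.0175, 0.150 and 0, and yellow 1, 2 and 3 had 0.212, 0.0179 and 0. White did not overlap either other color, and the low side rests on 7 reads in brown and 12 in yellow. White to brown came to 29.9-fold (95% counting interval 14.3 to 75.3), or 143-fold without brown 2, which held 6 of the 7 brown reads (25.5 to 5686), and 19.1-fold without brown 1 (8.66 to 52.7).

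LOC113066051, at 3572535 to 3585956 on the plus strand of chromosome 49, was the second most abundant of the white-skin copies. It had 8.97, 14.0 and 21.5 FPKM in white 1, 2 and 3. Brown 1, 2 and 3 had 0.0929, 0 and 0.0514 FPKM, and yellow 1, 2 and 3 had 1.18, 0 and 0.255. White lay above every other library, and again yellow 1 came next. The ratio of white to brown was 250 (131 to 547), or 617 without brown 1, on the 2 reads that remained (171 to 5096). Without brown 2 it was 171 (89.9 to 374).

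LOC113065965, at 14248912 to 14262082 on the minus strand of chromosome 49, had 3.34, 3.91 and 6.53 FPKM in white 1, 2 and 3. Brown 1, 2 and 3 had 0.0199, 0 and 0.116 FPKM, and yellow 1 had 0.724 with no read in yellow 2 or yellow 3. White exceeded brown 118-fold (45.6 to 433). Without brown 3, which held 3 of the 4 brown reads, the ratio was 361 (64.4 to 14278), and without brown 2 it was 80.4 (31.2 to 296).

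Of the 8 members that could be tested, 5 had all 3 white libraries above the other 6, which was true of 1.57% of the 27420 genes tested. LOC113040942 was the 1 member with all white libraries below, as were 2.36% of genes. The remaining 2 overlapped between colors. Nothing is read from these counts, because the members were picked for this pattern and the 5 copies met the minimum of 1 FPKM in 3 libraries only through white skin.

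**Figure D1:**
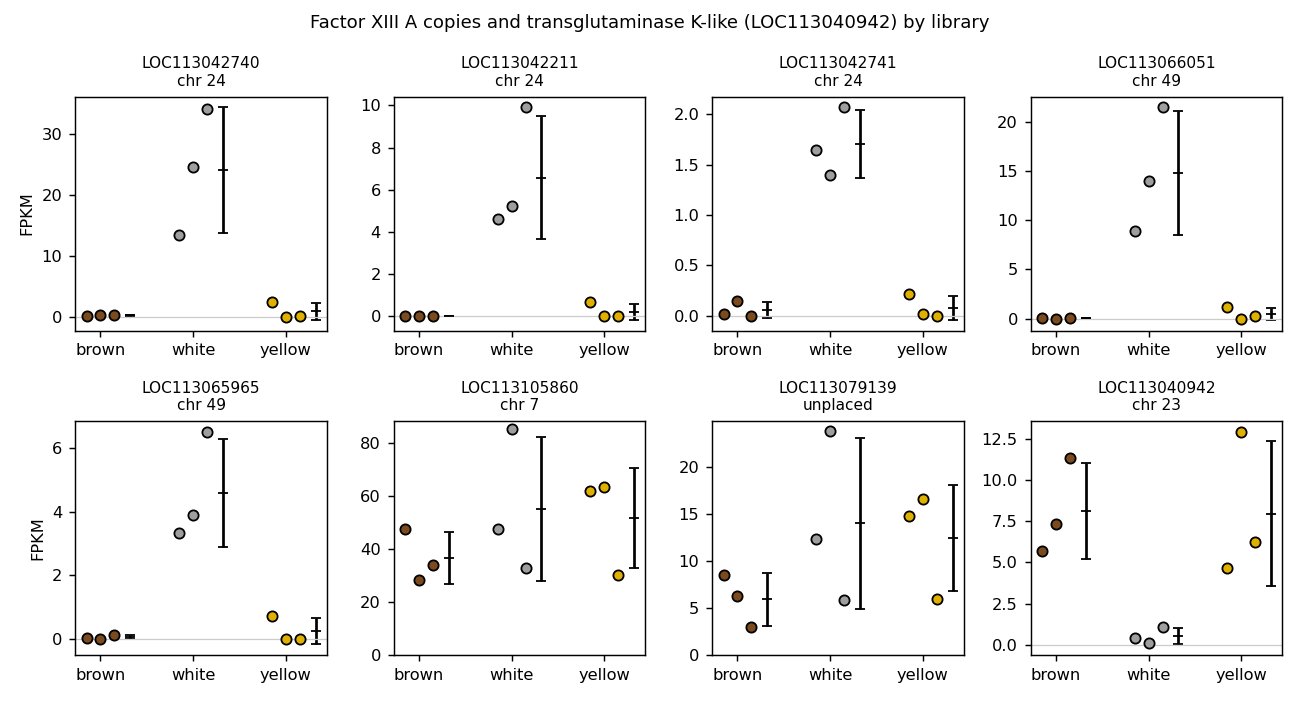
FPKM of the 8 members with reads in each of the 9 libraries (points, in the order 1, 2, 3 within a color) with the mean and SD of each color (bar at right). The 5 copies on chromosomes 24 and 49 are high in the 3 white libraries, LOC113040942 is low there, and LOC113105860 and LOC113079139 overlap between colors. Vertical scales differ between panels.

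Yellow 1 set the size of the contrast between white and yellow. The 5 copies had 304 reads in yellow 1, 1 read in yellow 2 and 12 in yellow 3. Yellow 1 stood at 10.1% of the white mean for LOC113042740, 10.1% for LOC113042211, 12.4% for LOC113042741, 7.97% for LOC113066051 and 15.8% for LOC113065965. The same library had 112% of the white mean for LOC113105860 and 106% for LOC113079139.

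With all 3 yellow libraries, white exceeded yellow 23.4-fold for LOC113042740 (95% counting interval 19.8 to 27.9). Without yellow 1 the ratio was 1041, on 2 reads (288 to 8602). For LOC113042211 it was 23.7-fold (17.1 to 33.7), and at least 187-fold without yellow 1. LOC113066051 gave 26.8-fold (21.8 to 33.5), and 152-fold without yellow 1 (82.5 to 318). LOC113065965 gave 15.5-fold (10.9 to 22.8), and at least 106-fold without yellow 1. LOC113042741 gave 18.96-fold (10.6 to 37.3), and 142-fold on 1 read without yellow 1 (25.2 to 5619). Leaving out yellow 2, which had 1 read on the 5 copies, lowered the ratios to 13.9 for LOC113042740, 14.1 for LOC113042211, 15.9 for LOC113066051, 9.19 for LOC113065965 and 12.3 for LOC113042741. All comparisons with brown and with yellow used the same 3 white libraries.

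Shares are given only for libraries with at least 30 reads on the 5 copies, which were white 1, 2 and 3 and yellow 1. Each of the other libraries had 1 to 15 reads on them. Between the libraries with shares, those of LOC113042740 and LOC113066051 were similar. LOC113042740 made up 41.98%, 50.0% and 46.0% of the summed FPKM of the 5 copies in white 1, 2 and 3, and 46.6% in yellow 1. LOC113066051 made up 28.0%, 28.6% and 29.1% in white, and 22.7% in yellow 1. LOC113042211 followed with 10.6% to 14.4% in white and LOC113065965 with 7.97% to 10.4%, against 12.8% and 13.9% in yellow 1. LOC113042741 contributed 2.79% to 5.15% in white and 4.06% in yellow 1, on 11 reads. The order of the copies by summed level in white was thus LOC113042740, LOC113066051, LOC113042211, LOC113065965 and LOC113042741. The order of LOC113042211 and LOC113065965 was turned in yellow 1, on only 38 and 33 reads, and this turn was not tested.

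Brown and yellow skin were compared directly as well. On the 5 copies, brown 1, 2 and 3 had 15, 14 and 14 reads and yellow 1, 2 and 3 had 304, 1 and 12. By reads the brown libraries thus lay between yellow 1 and the other yellow libraries. In summed FPKM, brown 1 at 0.224 lay below yellow 3 at 0.316. Since the 5 copies met the minimum level only through white skin, no test of brown against yellow is given for them. No gene in the table passed in this comparison by limma on log2(FPKM + 1) (0.0% of tested genes). At an unadjusted p under 0.05 there were 457, and voom on the recovered reads called 0.

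LOC113105860, at 11307119 to 11316156 on the plus strand of chromosome 7, was the most abundant factor XIII A copy in every library except white 3. It had 47.3, 28.2 and 33.9 FPKM in brown 1, 2 and 3, and 47.4, 85.2 and 32.7 in white 1, 2 and 3. Yellow 1, 2 and 3 had 61.8, 63.1 and 29.98. The group means of 36.5 ± 9.82 in brown, 55.1 ± 27.1 in white and 51.6 ± 18.8 in yellow (SD, n = 3 each) overlapped in full. Brown minus yellow was −0.45 ± 0.49 on the log2 scale (limma adjusted p = 0.9999).

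LOC113079139, on the plus strand of an unplaced sequence at 297157 to 306293, ran at a lower level. It had 8.495, 6.27 and 2.94 FPKM in brown 1, 2 and 3, then 12.3, 23.9 and 5.84 in white and 14.8, 16.6 and 6.002 in yellow. Brown was the lowest color by its mean, 5.90 ± 2.80, against 14.0 ± 9.13 in white and 12.5 ± 5.66 in yellow, but the libraries overlapped. The difference between brown and yellow, −0.95 ± 0.56 log2, did not pass (limma adjusted p = 0.9999, unadjusted p = 0.127).

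The levels of LOC113105860 and LOC113079139 followed each other over the 9 libraries, with a Pearson r of 0.902 on log2(FPKM + 1). Together they had a CPM (reads scaled to the counted reads of the library) of 65.3, 69.7 and 72.0 in brown 3, white 3 and yellow 3, and of 102 to 308 in the other 6 libraries. The libraries numbered 3 were also those with the most skeletal muscle RNA in each color: muscle genes took 17.02%, 28.5% and 22.6% of their reads, against 0.187% to 10.1% elsewhere. The part of muscle content in the level of these copies was not tested.

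Both of these copies have a gene named trichohyalin upstream, 1552 bases from LOC113105860 and 1572 bases from LOC113079139, and a gene named peroxidasin homolog close by. In the annotation LOC113105860 lies inside the span of its peroxidasin homolog, LOC113105380, on the same strand. That gene held 3 reads in all 9 libraries together, against 20527 for LOC113105860. Trichohyalin, in mammals a protein of the hair follicle and a transglutaminase substrate, had 1.19 to 7.73 FPKM beside LOC113105860 and 0.157 to 1.16 FPKM beside LOC113079139.

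Summed over the 8 copies, factor XIII A stood at 56.0, 34.8 and 37.2 FPKM in brown 1, 2 and 3. White 1, 2 and 3 had 91.6, 158 and 113, and yellow 1, 2 and 3 had 81.8, 79.7 and 36.3. In FPKM all 3 white sums were above the other 6, although white 1 exceeded yellow 1 by little. By reads this did not hold. The 8 copies had 3602 reads in white 3, but 4347 in yellow 1 and 4528 in yellow 2. Reads on all genes in these libraries were 16300068, 16212474 and 16917243. The copies on chromosomes 24 and 49 supplied 34.9%, 31.0% and 65.8% of the family's FPKM in white 1, 2 and 3. In brown they supplied 0.401% to 1.18%, and in yellow 6.38%, 0.0224% and 0.870%. The sum of the copies on chromosome 7 and on the unplaced sequence, 38.5 to 109 FPKM in white, overlapped brown (34.5 to 55.8) and yellow (36.0 to 79.7).

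The spread of the white libraries in FPKM was wider than in reads. The 5 copies summed to 31.99, 49.1 and 74.1 FPKM in white 1, 2 and 3. Their CPM was 131, 157 and 151. The denominators that the authors' FPKM imply were 1.39, 1.08 and 0.689 times the counted reads of these libraries. On the read scale, brown had a CPM of 0.827 to 1.02 on the 5 copies, and yellow had 18.8, 0.0591 and 0.795.

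**Figure D2:**
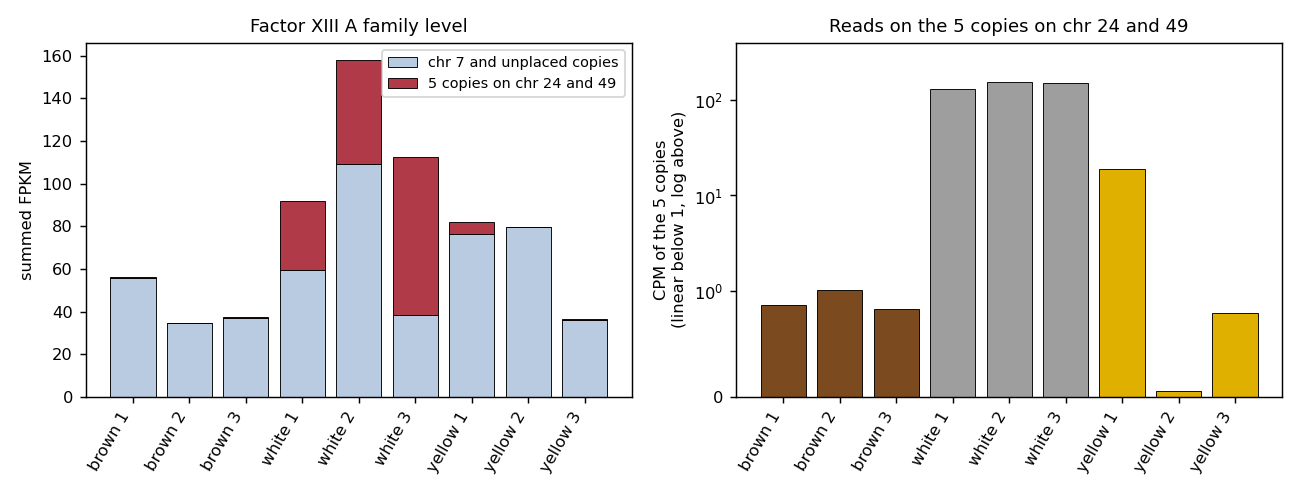
Left, summed FPKM of the 8 factor XIII A copies in each library, with the copies on chromosomes 24 and 49 in red and the copies on chromosome 7 and the unplaced sequence in blue. Right, CPM of the 5 copies of chromosomes 24 and 49, on an axis that is linear below 1 and logarithmic above. The 3 white libraries reach 131 to 157 CPM, yellow 1 reaches 18.8 and the other 5 libraries stay near or under 1.

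The 5 copies were not neighbours in a single cluster. LOC113042740 and LOC113042211 are a tandem pair, 31929 bases apart with no annotated gene between them. LOC113042741 lies 298244 bases further on, in the opposite direction, with 9 annotated genes in between. LOC113066051 and LOC113065965 are 10662955 bases apart on chromosome 49, with 302 annotated genes between them. The chromosome numbers are those of the ASM336829v1 assembly, whose gene positions match the files.

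Goldfish descend from an ancestor whose whole genome doubled, and chromosomes 24 and 49 share much of their gene content. Of 148 product names found on chromosome 24 and exactly 1 other chromosome, 119 had their other copy on chromosome 49, and the next chromosome had 8. The gene neighbourhoods paired the copies across these chromosomes. LOC113042740 and LOC113066051 each follow a gene for the inhibin beta A chain and are followed, beyond the tandem copy on chromosome 24, by a neuritin gene. LOC113042741 and LOC113065965 each lie between a tubulin beta-5 chain gene and genes for lymphocyte antigen 86 and ras-responsive element-binding protein 1. In human, the factor XIII A gene has genes for neuritin, lymphocyte antigen 86 and ras-responsive element-binding protein 1 as neighbours too.

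The genes beside the copies were set next to them by library. Enoyl-CoA delta isomerase 2 (eci2), a mitochondrial enzyme of fatty acid oxidation that ends 4001 bases upstream of LOC113042740, had 17.7, 27.9 and 24.7 FPKM in brown, 18.2, 22.7 and 26.3 in white and 18.2, 14.9 and 27.6 in yellow. Of the 9 genes between LOC113042211 and LOC113042741, 4 were tested, and 0 of the 9 had all white libraries above the other 6. Over the 32 nearest genes that flank the 9 members, 9 were tested. Of these 9, none had all white libraries above or below the other 6, where 1.57% and 2.36% of all genes did, and 0 passed in any of the 3 contrasts by limma, where 0.0365% of all genes passed in brown and 0.0438% in yellow against white. With shares so low, 0 of 9 is near the background. Under the minimum for testing, a podocan gene (LOC113041243) beside LOC113040869 had all white libraries above the other 6. It had 0.737 to 1.17 FPKM in white and at most 0.678 in any other library. Next to LOC113040942, a gene for protein FAM13A (LOC113041714) 428 bases away had at most 0.354 FPKM in any library.

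**Figure D3:**
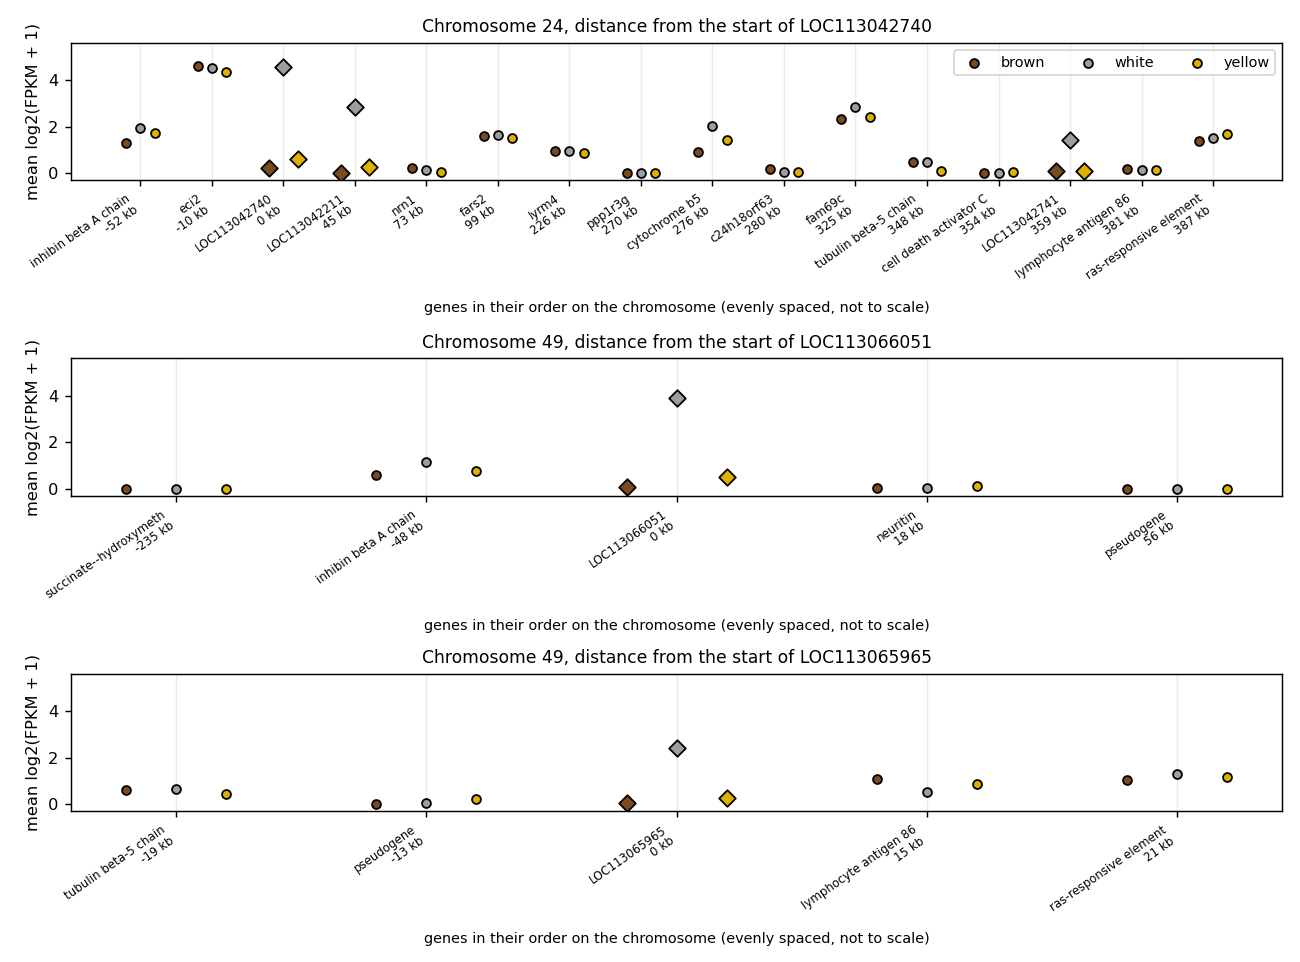
Mean log2(FPKM + 1) by color for genes around the copies on chromosome 24 and on chromosome 49, in gene order, with the distance from the start of the named copy under each gene. Diamonds are factor XIII A copies and circles other genes. White stands apart at the 5 diamonds, while eci2, which starts 9.76 kb before LOC113042740, lies between 4.36 and 4.59 in every color. White also has the highest mean, by a smaller step, at both inhibin beta A chain genes, at cytochrome b5 and at fam69c. By less still, it is highest at fars2, both tubulin beta-5 chain genes and the ras-responsive element-binding protein 1 gene of chromosome 49.

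LOC113040942 was the opposite case. It is annotated at 970685 to 980661 on the minus strand of chromosome 23 and carries the symbol tgm1 in the RefSeq table, the name of transglutaminase K. It had 5.68, 7.35 and 11.3 FPKM in brown 1, 2 and 3 and 4.69, 12.9 and 6.23 in yellow 1, 2 and 3. White 1, 2 and 3 had 0.398, 0.145 and 1.12 FPKM. Every white library lay below every brown and yellow library, and the closest in FPKM were white 3 and yellow 1. In reads the gene held 1989 in brown, 2406 in yellow and 130 in white.

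Brown to white came to 16.1-fold (95% counting interval 13.5 to 19.3) and yellow to white to 17.9-fold (14.99 to 21.5). White 3 held 68 of the white reads, and without it the ratios were 26.4 for brown and 29.3 for yellow. Without white 2 they were 11.7 and 13.1. Without yellow 2, the highest yellow library, yellow to white was 11.2. Brown and yellow differed by 0.09 ± 0.41 log2 (limma adjusted p = 0.9999, unadjusted p = 0.836).

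For LOC113040942, yellow 1 lay above the 3 white libraries and below the other 5 in FPKM. By CPM, yellow 3 was the lowest library outside white, with 25.6 against 31.4 in yellow 1. The yellow 1 level of 4.69 FPKM was 845% of the white mean. The library that came nearest to white in the 5 factor XIII A copies thus had LOC113040942 at a level next to that of the lowest brown library, 5.68 FPKM.

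The transglutaminase K-like name is given to 26 genes, LOC113040942 included, of which 19 had a read. Chromosome 23 holds 8 of them, all with reads, and chromosome 48 holds 7, of which 5 had none. The highest level of any copy on chromosome 48 was 0.280 FPKM, against 12.9 on chromosome 23. These 2 chromosomes share 144 of the 204 product names that chromosome 23 has on exactly 1 other chromosome. The other K-like genes are 10 on unplaced sequence and 1 on chromosome 2.

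Within the K-like genes, LOC113040942 made up 29.7%, 32.4% and 52.8% of the summed FPKM in brown 1, 2 and 3 and 33.6%, 45.9% and 33.8% in yellow 1, 2 and 3. In white it made up 5.09%, 0.973% and 10.2%. The other 25 copies summed to 12.9 ± 2.64 FPKM in brown, 10.7 ± 3.70 in white and 12.2 ± 2.99 in yellow (SD, n = 3 each), so their sum overlapped between colors. LOC113112816, the K-like gene on chromosome 2, had 8.44, 2.87 and 7.97 FPKM in brown, 4.59, 11.9 and 6.10 in white and 6.33, 10.7 and 5.58 in yellow. It was the main K-like transcript of white skin, and its contrasts did not pass (limma adjusted p = 0.908 for brown and 0.9998 for yellow against white).

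None of the other transglutaminases passed the test between colors. Of 36 annotated genes outside the members (types 2, 5 and K), 9 were tested, 7 had no read in any library and 0 passed in any contrast by limma. Over all genes 0.0365% passed in brown and 0.0438% in yellow against white, so 0 of 9 is again near the background. Their median log2 difference from white was 0.59 in brown and 0.24 in yellow, beside −0.02 and −0.03 over all tested genes. LOC113089140, a type 5-like gene on chromosome 6, had 42.7, 11.7 and 37.8 FPKM in brown, 9.47, 1.32 and 4.73 in white and 49.6, 96.7 and 9.64 in yellow. Its white libraries were the lowest, with yellow 3 just above white 1. The log2 difference was 2.42 ± 0.87 for brown and 2.85 ± 0.87 for yellow against white (limma adjusted p = 0.788 and 0.9998).

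LOC113102464, a gene of type 2, the widespread tissue transglutaminase, had 9.71, 36.0 and 32.9 FPKM in brown and 11.9, 5.07 and 9.65 in white. Yellow had 13.3, 33.9 and 44.7 FPKM. Only the yellow libraries were all above white, and the difference of 1.59 ± 0.61 log2 did not pass (limma adjusted p = 0.9998). LOC113050988, a second type 5-like gene, overlapped between colors, with 0.313 to 9.86 FPKM in white and 0.873 to 8.94 in yellow. All white libraries were above brown or yellow for 0 of the 9 tested genes, where 5.18% and 4.54% of all genes were so. All brown libraries were above white for 1 of 9 and all yellow for 2 of 9, where 5.74% and 5.09% of all genes did so.

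**Figure D4:**
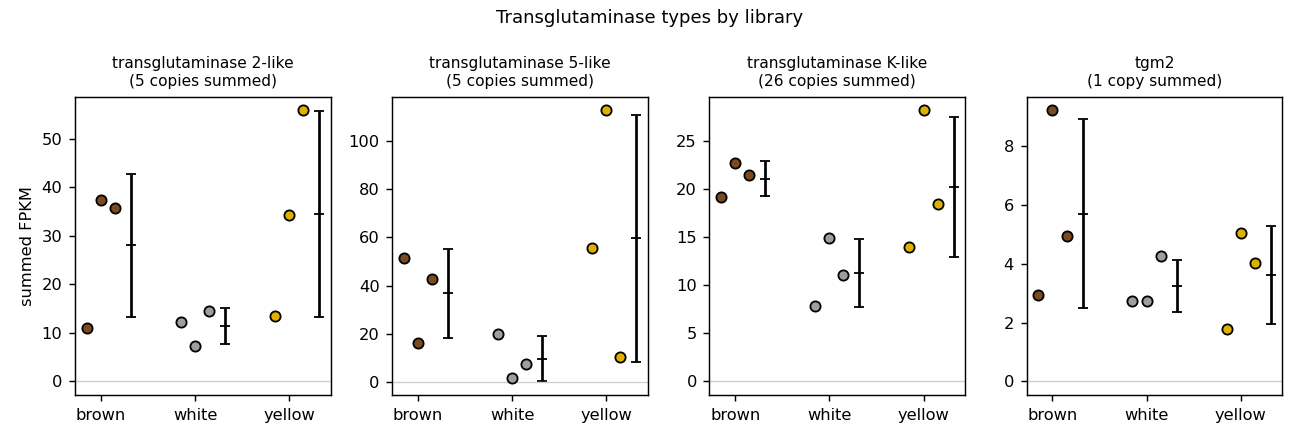
Summed FPKM of the type 2-like, type 5-like and K-like transglutaminase genes and of tgm2 in each library (points) with the mean and SD of each color (bar at right). The K-like panel includes LOC113040942 and runs from 7.82 to 14.9 FPKM in white, 19.1 to 22.6 in brown and 14.0 to 28.2 in yellow. Vertical scales differ between panels.

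The genes that act before and after factor XIII in clotting were read at low to moderate levels. Of 48 annotated clotting factors, cofactors and receptors, 11 were tested and 0 passed in any contrast by limma (over all genes 0.0365% in brown and 0.0438% in yellow against white), with a median log2 difference from white of −0.31 in brown and −0.36 in yellow. The most abundant were the tissue factor gene LOC113115472, the starter of clotting, with 4.28 to 24.7 FPKM in white and 4.87 to 26.5 in yellow, and the coagulation factor VII gene LOC113087321, the protease that tissue factor activates. LOC113087321 had 15.5, 8.29 and 6.03 FPKM in brown, 8.71, 26.4 and 7.14 in white and 7.44, 7.99 and 9.41 in yellow, and the colors overlapped. Thrombomodulin LOC113120576, the endothelial thrombin receptor, had 4.51 to 5.93 FPKM in brown and 4.09 to 12.5 in white, and tissue factor LOC113045503 had 2.79 to 4.49 and 3.18 to 5.89.

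Of 69 inhibitors of clotting and genes of fibrinolysis, the process that dissolves fibrin, 17 were tested. By limma 0 passed in any contrast (over all genes 0.0365% in brown and 0.0438% in yellow against white). All brown libraries were below white for 3 of the 17 and above for 1, where 5.18% and 5.74% of all genes were so. All yellow libraries were below white for 0 (4.54% of all genes) and above for 0 (5.09%). LOC113105786, a gene for plasminogen activator inhibitor 1, which slows fibrinolysis, had 8.01, 7.97 and 6.26 FPKM in brown, 8.26, 21.0 and 33.8 in white and 7.89, 8.90 and 15.9 in yellow. The brown libraries were all below white, with white 1 next to brown 1, and the log2 difference of −1.20 ± 0.49 did not pass (limma adjusted p = 0.788). A second copy, LOC113052059, had 7.57 to 16.9 FPKM in brown and 10.2 to 15.3 in white. Tissue factor pathway inhibitor LOC113108344 had 2.95 to 27.6 FPKM in brown and 14.99 to 44.7 in white. Its relative LOC113062048 (inhibitor 2) had 4.66 to 10.1 in brown, all below the 10.9 to 16.2 in white.

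Among genes for matrix proteins that transglutaminases cross-link, 41 of 61 were tested, and among genes of the cornified envelope and of desmosomes, the junctions between keratinocytes, 32 of 45. None of either list passed in any contrast by limma (over all genes 0.0365% in brown and 0.0438% in yellow against white). The median log2 difference of the envelope and desmosome genes from white was 0.68 in brown and 0.59 in yellow, and 7 of the 32 had all brown libraries and 5 all yellow libraries above white, where 5.74% and 5.09% of all genes did. For the matrix genes the medians were −0.51 and −0.16. All brown libraries were below white for 3 of the 41 and all yellow libraries for 1, where 5.18% and 4.54% of all genes were so. None of the 41 had all brown or all yellow libraries above white.

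The summed markers of the cells known to make factor XIII A in mammals overlapped between white and the other colors, while single markers did not all overlap. The macrophage and dendritic cell list, 142 genes of which 31 were tested, summed to 385 to 653 FPKM in white, 344 to 570 in brown and 547 to 1066 in yellow. By limma 0 of 31 passed (over all genes 0.0365% in brown and 0.0438% in yellow against white). All brown libraries were below white for 1 of the 31 (5.18% of all genes), and all yellow libraries were below for 1 (4.54%) and above for 2 (5.09%). The gene below in both was LOC113109077, for the macrophage receptor MARCO, with 3.25, 5.24 and 3.72 FPKM in white, 0.675 to 2.66 in brown and 2.32 to 3.00 in yellow. It was the minor of the 2 MARCO genes with reads. Their sum overlapped between colors, with 29.3 to 41.2 FPKM in white, 24.7 to 98.1 in brown and 36.8 to 98.1 in yellow. Both genes above in yellow were granulin genes. The macrophage colony-stimulating factor 1 receptor had 4.66 to 8.54 FPKM in white, 3.96 to 7.14 in brown and 3.43 to 13.1 in yellow. Macrophage-expressed gene 1 protein had 4.59 to 32.6, 3.75 to 18.5 and 5.33 to 28.9. CD209 antigen, a lectin of dendritic cells in mammals, was at most 0.202 FPKM in any library. The highest macrophage sum was in yellow 1, the yellow library with reads on the 5 copies, where granulins gave 592 FPKM against 104 to 245 in the other 8 libraries. The part of macrophage RNA in the level of these copies was not tested.

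The thrombocyte list, 28 genes for the nucleated clotting cells of fish of which 7 were tested, summed to 40.6 to 83.9 FPKM in white, 59.1 to 69.8 in brown and 39.0 to 93.2 in yellow. The platelet glycoprotein Ib alpha chain, a defining marker, stood at 0.573 to 1.78 FPKM in white and 0.619 to 3.24 in brown. The thrombopoietin receptor had 9.30 to 14.5 FPKM in brown, all above the 3.10 to 6.58 in white, and 3.70 to 10.3 in yellow. P-selectin was higher in every white library, with 0.192 to 0.346 FPKM, than in brown (at most 0.0936) and yellow (at most 0.170), at a level below the minimum for testing. The part of thrombocyte RNA in the members' levels was not tested. Keratinocyte markers, where transglutaminase K is made in mammals, summed to 2363 to 11622 FPKM in white, 3971 to 10454 in brown and 2349 to 9568 in yellow, abundant as the skin label would have it and overlapping between colors. The keratinocyte sum was 11622, 2363 and 3022 FPKM in white 1, 2 and 3, where LOC113040942 had 0.398, 0.145 and 1.12 FPKM. White 1 had the highest sum of all 9 libraries. Yellow 3 had the lowest, 2349 FPKM, with LOC113040942 at 6.23 FPKM. The part of keratinocyte content in the level of LOC113040942 was not tested.

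In summed FPKM, 3 of 16 lists had all white libraries below the other 6. These were the other transglutaminases (26.4 to 42.5 FPKM against 78.1 to 167), the melanophore markers and the markers of xanthophores and iridophores. By share of reads, only the melanophore markers of these 3 stayed apart. The other transglutaminases took 0.0163% of reads in white 1 and 0.0162% in yellow 3. The xanthophore and iridophore markers took 0.0113% in white 2 and 0.0104% in yellow 3. Melanophores are the black pigment cells of fish, and their 16 genes summed to 0.672 to 1.01 FPKM in white, 9.94 to 34.1 in brown and 14.1 to 39.8 in yellow. One of them, the melanoma antigen recognized by T-cells 1 gene LOC113081155, rose in yellow against white by 3.52 ± 0.38 log2 (limma adjusted p = 0.0149). Its level was 17.7, 6.31 and 12.3 FPKM in yellow and 0, 0.197 and 0 in white. It was the only called gene among the 16 lists and 1 of the 6 melanophore genes tested. Over all genes 0.0438% passed in yellow against white. The call was lost when brown 3, yellow 1, yellow 3 or any of the white libraries was left out, and also with voom on the recovered reads. Tyrosinase, the enzyme that starts melanin synthesis, summed to 0.285 to 0.424 FPKM in white, 0.959 to 3.42 in brown and 1.20 to 3.16 in yellow. In FPKM the highest melanophore sum was in yellow 1, the library nearest to white in the 5 copies, with yellow 3 close at 38.6. By share of reads it was in brown 2, with 0.00742% against 0.00675% in yellow 1. The part of pigment cell RNA in the members' levels was not tested.

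The genes whose profile over the 9 libraries was most like that of the copies LOC113042740, LOC113042211, LOC113066051 and LOC113065965 were at low or moderate levels. By Pearson r on log2(FPKM + 1), the closest was an annotated tRNA-Ser (r = 0.962), which had 7 reads in all, each in white. LOC113069118, for protein FAM110B, followed (r = 0.960) with 1.93 ± 0.126 FPKM in white, 1.13 ± 0.0364 in brown and 1.08 ± 0.1002 in yellow. LOC113052254, for the mitochondrial inner membrane protein OXA1L (r = 0.955), had 3.22 ± 0.532 in white and 1.80 ± 0.267 in brown. LOC113044490, for protein canopy homolog 3 (r = 0.953), and LOC113117181, for a BCL2-interacting mitochondrial protein (r = 0.942), were likewise higher in white than in each of the other 6 libraries. LOC113117181 had 12.3 ± 0.666 FPKM in white and 6.45 ± 1.03 in brown.

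None of these had the range of the factor XIII A copies. Because white stands apart from the 6 other libraries in all of them, the r mainly records that step and is given without a test. In yellow 1 they stood at 50.6% to 71.6% of their white mean, the tRNA left aside, where the copies stood at 7.97% to 15.8%. These ranges do not compare a rise in yellow 1, because brown was also well above 0 in these genes. LOC113069118 had 1.18 FPKM in yellow 1 and 1.10 to 1.17 in brown, and LOC113044490 had 0.727 and 0.501 to 0.795. LOC113052254 had 2.20 and 1.59 to 2.105, and LOC113117181 had 8.77 and 5.28 to 7.21.

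For LOC113040942 the most similar profiles were those of LOC113054123, a sodium-dependent phosphate transporter 1-B gene (r = 0.980), of LOC113057722, a gene for the apoptosis inhibitor XIAP (r = 0.976), and of LOC113069997, an inositol polyphosphate multikinase gene (r = 0.970). LOC113054123 had 10.3 ± 3.53 FPKM in brown, 2.54 ± 0.868 in white and 9.06 ± 3.62 in yellow. LOC113057722 had 16.7 ± 4.57, 5.25 ± 1.48 and 16.4 ± 3.86. LOC113069997 had 4.55 ± 1.24, 0.825 ± 0.386 and 4.50 ± 0.844, the largest step of the 3 and still smaller than that of LOC113040942, at 8.11 ± 2.88, 0.555 ± 0.507 and 7.95 ± 4.38 FPKM. These were the same 9 libraries in each case, so the r shares their depth and their composition.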

How the data were processed

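Libraries of 9 back skin samples were prepared with the SMARTER mRNA-Seq kit according to the labels. Per the submitters' processing notes, HISAT2 and StringTie were used. The sources used here state neither the strand setting, the genome build nor how shared reads were counted. The authors deposited 1 table per library with FPKM for 74297 genes. In each library, 100% of nonzero FPKM values were whole numbers of reads (within 0.001) once length and a library constant were divided out, which gave the read counts used for ratios, floors and counting intervals. For each ratio, the pooled reads of a color were divided by the summed library denominators that the FPKM imply. The counting intervals cover counting error only. Of the 74297 genes, 2229 had no gene name. These took 0.862% to 1.49% of reads and were kept.

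Of the gene IDs, 72068 matched RefSeq (ASM336829v1) and 72059 had the same start.

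The main test was limma 3.58.1 (R 4.3.3) on log2(FPKM + 1), which understates changes of low genes. It used all 9 libraries, color as the only term, genes with at least 1 FPKM in at least 3 libraries (27420), and two-sided contrasts with Benjamini-Hochberg adjustment at 0.05. The test was tried on simulated data. Alternatives were other pseudocounts, filters and scalings, a replicate block, voom on the recovered reads, and leaving out libraries. The members and gene lists were chosen with earlier results of these data known. Named genes were all members, their 2 nearest genes on each side, up to 4 passing members per list, the 4 most abundant of the transglutaminase and clotting lists, and the 5 and 3 genes most similar in profile. A comparison of all library pairs found no duplicate library.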

Additional observations from a re-analysis of the deposited data

How the results depend on the processing

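In all settings that gave a value, the 5 copies on chromosomes 24 and 49 stayed below white in brown and yellow and LOC113040942 stayed above, on the log2 scale. The smallest differences were −1.32 in brown and −1.28 in yellow, both for LOC113042741. These members were picked for this difference in the same libraries, so the kept sign is a description and no check of it. When a white library was left out, or with a filter at 5 FPKM, LOC113042211, LOC113042741 and LOC113065965 fell under the minimum level and gave no value. LOC113079139 and LOC113105860 changed sign for yellow against white in 2 and 3 settings.

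Counts of genes that passed, 10 in brown against white, were 2 without a filter, 5 with a filter at 5 FPKM, 5 with TPM, 3 with a replicate block, and 0 both without the 3 libraries numbered 3 and with voom. Leaving out 1 library gave 0 to 14. For yellow against white, 12 genes passed, and 5 without a filter, 5 with the filter at 5 FPKM, 6 with a replicate block, 6 without the libraries numbered 3 and 0 with voom. Leaving out 1 library gave 2 to 12. For brown against yellow 0 passed, 1 with a pseudocount of 0.1, and 0 to 0 without 1 library. The cause was not tested.

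The log2 brown minus yellow difference of LOC113040942 reversed to −0.18 with TPM and to −0.25 without the libraries numbered 3, neither past the threshold. That of LOC113042740 reversed to 0.55 with voom. It is given without a test, since this copy met the minimum level only through white skin. Leaving out 1 library moved this difference over −0.69 to 0.20 for LOC113042740, −0.088 to 0.063 for LOC113042741, −0.33 to 0.062 for LOC113065965 and −0.19 to 0.46 for LOC113040942. The cause was not tested. TPM moved the median of all genes to −0.19 in brown against white and to −0.22 in brown against yellow.

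Samples were not treated as paired, since no label ties the replicate numbers together and not every pair with the same number had deviations that correlated above 0.1. Of 9 such pairs 7 did, over a range of −0.30 to 0.77, and a library correlated best with its own number in 11 of 18 checks. The libraries numbered 3 shared the lowest FPKM denominators, 0.675 to 0.762 times the counted reads. With the replicate block, 3, 6 and 0 genes passed in the 3 contrasts. Reads on the 5 copies in brown and yellow numbered few, so counting error alone leaves their ratios to white as uncertain as the intervals given. Those intervals do not cover the spread between libraries, so the ratios are less certain still. For LOC113042740, white to yellow was 23.4 (19.8 to 27.9) with all libraries and 1041 without yellow 1.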
